A study of Mus musculus with 6 samples.

Results

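The adenosine receptor probes of a spotted oligonucleotide array were followed across mouse cerebral cortex and thymus. Members were all oligos whose printed class was ADENOSINE RECEPTORS: 12 oligos of the 590 gene probes, belonging to 6 of 288 sequence entries, each entry with 2 oligos and each oligo spotted 2 times per array. The 3 cortex arrays carried a pool of RNA from 6 cortices and the 3 thymus arrays a pool from 5 thymi, all from adult B10D2 mice, with 15 µg of RNA labelled per array. Each tissue was thus 1 pool hybridized 3 times, so every SD, SE and p-value below rests on the spread between hybridizations and not between animals.

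Adenosine receptors are G protein-coupled receptors for extracellular adenosine. A1 and A3 couple to Gi proteins and lower cyclic AMP, whereas A2a and A2b couple to Gs proteins and raise it. A1 is the receptor best known on cortical neurons, where it restrains transmitter release. A2a is best known in the striatum and on T lymphocytes, where it dampens activation, A2b needs higher adenosine concentrations than A1 or A2a, and A3 is known in rodents from mast cells.

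The 6 entries covered all of these receptors. Adora1 (A1) had 2 entries, printed adora1 and a1, and Adora2a (A2a), Adora2b (A2b) and Adora3 (A3) had 1 each, printed a2a, adora 2b and a3. The sixth entry was printed balb/c within the same class, with no receptor named, and it is called by that name here. In a tissue pool, fewer cells of a type and less RNA per cell cannot be told apart.

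The arrays differed in brightness. The median net signal over gene spots, which is the spot median minus the local background median in scanner units, was 817 to 2491 on the cortex arrays and 468 to 914 on the thymus arrays. A pair of numbers in the image names of the file headers was read as the scan setting, which the headers do not say it is, and it crossed the tissues only in part: cortex 1, cortex 2 and thymus 1 shared setting 1, cortex 3 and thymus 2 shared setting 2, in which spots covered a median of 30 and 25 pixels, and thymus 3 alone had setting 3. After scaling, arrays of cortex correlated at 0.92 to 0.95 with each other across probes, thymus arrays at 0.80 to 0.87, and arrays of different tissues at 0.58 to 0.69. Of the neuron markers 2 of 9 genes were on the array, Gad2 and Eno2, and 5 of their 6 oligos were higher in cortex after scaling. The Gad2 entries carried different printed names, gad65 and GAD67, under 1 symbol. Oligo 2 of both entries was above background on no thymus array, so it entered the test through cortex alone. Summed over the 5 oligos with a value on every array, net signals were 30806 to 67286 on cortex arrays and 2826 to 4252 on thymus arrays. The astrocyte marker Slc1a3 had 1 of 2 oligos higher in cortex after quantile scaling. The oligodendrocyte marker Mbp gave opposite calls in that form. Its oligo 1 was higher in cortex, at a log2 cortex minus thymus difference of 3.66 (adjusted p = 4.6e-06 by limma). Its oligo 2, above background on every array, was higher in thymus, at -1.44 (adjusted p = 0.00347). With no scaling Mbp oligo 2 differed by -0.44 (adjusted p = 0.727). Of the thymocyte and lymphocyte markers 1 of 10 genes was on the array, the potassium channel Kcna3. Both of its oligos were higher in thymus after quantile scaling, where 23.7% of all tested probes were. Their summed net signals were 1062 to 2664 in cortex and 2118 to 5138 in thymus. With no scaling neither Kcna3 oligo passed, at -0.98 (adjusted p = 0.362 by limma) and -0.62 (adjusted p = 0.602). After centring on control genes oligo 1 passed (adjusted p = 0.0144) and oligo 2 did not (adjusted p = 0.0874).

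Because no single scaling was given with the files, each receptor is described by its net signal, then by its cortex minus thymus difference in log2 intensity in 3 forms: after quantile scaling of the arrays, which was the main form, with no scaling, and after centring on the printed control genes. Over the 465 probes tested in all, the median difference was -0.10 after quantile scaling, 0.86 with no scaling and 0.48 after control centring. A difference below 0 is therefore set beside these values. Control centring moves oligos with a value on every array by 1 constant from the unscaled form, so it can change a call but not the order of such oligos. Tests were moderated fits with limma, adjusted over all 465 probes by the Benjamini-Hochberg method, with a threshold of 0.05. With no scaling limma gave every tested member the same SE, 0.73, a value pooled over probes. In that form the SE is therefore not the spread of the single oligo, and it also holds the differences in array brightness.

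Adora1 was the receptor whose oligos lay furthest towards cortex among the tested members after quantile scaling and with no scaling, and its call depended on the scaling. Oligo 1 of the adora1 entry had net signals of 9492, 7589 and 2858 on cortex 1, 2 and 3, against 2875, 1919 and 1056 on thymus 1, 2 and 3. The 2 tissues overlapped by a narrow margin, the dimmest cortex array lying just under the brightest thymus array. Oligo 2 had 21914.5, 26708 and 7148.5 in cortex, against 12770, 4739 and 5299.5 in thymus. Here the third cortex array lay within the thymus range and the other cortex arrays above it.

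With no scaling, Adora1 oligo 1 was 3.03-fold higher in cortex (log2 1.60 ± 0.73, SE, n = 3 arrays per tissue; unadjusted p = 0.0279, adjusted p = 0.0955 by limma). Oligo 2 was 2.30-fold higher (log2 1.20 ± 0.73, adjusted p = 0.244), so neither passed. After control centring oligo 1 passed, at 1.21 ± 0.47 (adjusted p = 0.0326), while oligo 2 did not, at 0.81 ± 0.47 (adjusted p = 0.184). After quantile scaling neither passed: oligo 1 differed by 0.60 ± 0.37 (adjusted p = 0.195) and oligo 2 by 0.36 ± 0.35 (adjusted p = 0.443). Both oligos lay above the all-probe median after quantile scaling and with no scaling, oligo 1 by the wider margin. Within setting 1 the unscaled differences were 1.48 for oligo 1 and 0.92 for oligo 2, and within setting 2 they were 0.44 and 0.54.

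The a1 entry, the other Adora1 sequence, could not be tested because of flagged spots. Its oligo 1 had net signals of 1035 on cortex 1 and 546 on cortex 3, against 8, 244 and 207 on thymus 1, 2 and 3, and was above background on 2 cortex arrays and on no thymus array. Oligo 2 kept a value on cortex 3 alone, 1140, against 1095.5, 489 and 654 in thymus. The image software had marked 7 of its 12 spots as bad, 5 of them on cortex arrays, where their net signals were 9150, 7572, 10714, 4297 and 1180.5. Of those 5 marked spots, 3 covered an area of 9 to 11 pixels.

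When the flagged spots were kept, a choice that left 473 probes to test, oligo 2 of the a1 entry was higher in cortex in both forms. It differed by 1.34 ± 0.38 after quantile scaling (adjusted p = 0.0113 by limma), where 24.7% of probes were called higher in cortex, and by 2.40 ± 0.73 with no scaling (adjusted p = 0.00621), where 25.2% were. Oligo 1 of that entry did not pass, at 0.38 (adjusted p = 0.522) and 1.32 (adjusted p = 0.193). The cortex call of the a1 entry could thus be made only with spots that the software had marked as bad.

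Adora2a gave different answers from its 2 oligos. Oligo 1 had net signals of 3929, 3469.5 and 685 in cortex, against 1803, 710.5 and 554 in thymus. The first and second cortex arrays were brighter than every thymus array, and the third lay within the thymus range. Oligo 2 had 24099.5, 10352 and 3503 in cortex, against 23129, 6570 and 6615 in thymus, so that the tissues overlapped over most of their range.

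After quantile scaling Adora2a oligo 2 was higher in thymus (-0.998 ± 0.39, adjusted p = 0.0412 by limma), whereas oligo 1 differed by -0.05 ± 0.39 (adjusted p = 0.944). The oligo 2 call was lost when 1 array was left out, with adjusted p = 0.169 without cortex 2, 0.15 without cortex 3 and 0.172 without thymus 1. It was also lost with the background subtracted (0.125), with no background correction (0.0826), with flagged spots kept (0.0625), with no detection filter (0.0582), with an offset of 0 (0.0515) and with the highest spot (0.0512), all adjusted p by limma. With no scaling the differences were 0.97 for oligo 1 (adjusted p = 0.372) and -0.06 for oligo 2 (adjusted p = 0.966), and after control centring 0.57 (adjusted p = 0.359) and -0.45 (adjusted p = 0.475). Oligo 1 changed its sign between forms, and oligo 2 lay below 0 in each.

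The gap between the oligos was seen inside single arrays, where array brightness cancels. Oligo 1 minus oligo 2 of Adora2a averaged -2.13 ± 0.70 on cortex arrays and -3.08 ± 0.15 on thymus arrays (SD, n = 3 each), a tissue gap of 0.95 with no overlap. Its exact permutation p was 0.1, two-sided, the smallest that 3 against 3 allows, and 0.5 after adjustment over the 5 entries tested. The other entries had gaps of 0.24 (Adora1, printed adora1), 0.40 (Adora2b), -0.18 (Adora3) and -0.04 (balb/c), all with overlapping tissues. When flagged spots were kept the Adora2a gap became -0.12, since 1 spot of oligo 1 on thymus 2, at the scanner ceiling, had been marked as bad.

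Adora2b was higher in thymus after quantile scaling by both oligos. Oligo 1 had net signals of 817, 599 and 106 in cortex, against 619, 189 and 438 in thymus, near the background of several arrays. Oligo 2 had 2605, 2523 and 1120 in cortex, against 3212, 2087.5 and 2021 in thymus. The tissues overlapped for both on the net signal and did not overlap after quantile scaling, where oligo 2 lay at 10.30, 10.66 and 10.68 in cortex and at 11.73, 11.98 and 11.94 in thymus.

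The quantile difference of Adora2b was -0.93 ± 0.35 for oligo 1 (adjusted p = 0.0341 by limma) and -1.33 ± 0.34 for oligo 2 (adjusted p = 0.00436), which is 1.91-fold and 2.52-fold higher in thymus. The call of oligo 2 held with each array left out in turn. That of oligo 1 was lost without cortex 3 (adjusted p = 0.127) and without thymus 3 (adjusted p = 0.0683), and the oligo failed the detection filter without cortex 1, cortex 2 or thymus 1. It was also lost with the background subtracted (adjusted p = 0.0647), with the highest spot (0.0887) and, in a run chosen after seeing the data, without the arrays of setting 2 (0.0896). With no scaling both differences were close to 0, at -0.14 (adjusted p = 0.925) and -0.29 (adjusted p = 0.819), and after control centring they were -0.53 (adjusted p = 0.404) and -0.68 (adjusted p = 0.268). Of the 3 forms, Adora2b was thus called higher in thymus in the quantile form alone.

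Adora3 was the receptor furthest towards thymus. Oligo 1 had net signals of 682, 394 and 6 in cortex, against 997.5, 316 and 636.5 in thymus. Oligo 2 had 1100.2, 376.5 and 44.5 in cortex, against 1059, 440 and 759 in thymus. On this measure the tissues overlapped, with the third cortex array below all others for both oligos. These were dim spots: oligo 1 was above background on 2 cortex arrays and 1 thymus array, and oligo 2 on 1 and 2.

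After quantile scaling Adora3 was higher in thymus by oligo 1 (-1.87 ± 0.37, adjusted p = 0.000553 by limma) and by oligo 2 (-1.69 ± 0.37, adjusted p = 0.00122), with no overlap of arrays. So near background the size is loose: it was -3.15 and -2.41 with no background correction, and the mean net signal of oligo 1 was 361 ± 339 in cortex and 650.0 ± 341 in thymus (SD, n = 3 each). After control centring both still passed, at -1.42 ± 0.48 (adjusted p = 0.0129) and -1.32 ± 0.48 (adjusted p = 0.0213). With no scaling neither passed, at -1.02 ± 0.73 (adjusted p = 0.339) and -0.93 ± 0.73 (adjusted p = 0.395). Within setting 1 the quantile differences were -1.70 and -1.47, and within setting 2 they were -2.26 and -1.98. The unscaled differences were -0.68 and -0.50 within setting 1 and -2.43 and -2.24 within setting 2. Neither array of setting 2 was above background for either Adora3 oligo, so the differences there compare undetected spots. Leaving out 1 array took oligo 1 below the detection filter without cortex 1, cortex 2 or thymus 1, and oligo 2 without cortex 1, thymus 1 or thymus 3. Both were called wherever they could be tested in these runs.

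With the scan setting as a block and no scaling, a fit chosen after seeing the data, Adora3 was higher in thymus by -1.43 ± 0.48 (adjusted p = 0.0104 by limma) and -1.24 ± 0.48 (adjusted p = 0.0278). These calls rest in part on the undetected Adora3 spots of setting 2. Thymus 3, alone in its setting, could not add to the contrast. No other member passed in that fit, in which 6.88% of probes were called higher in thymus and 33.1% higher in cortex. Its SE, too, was the same for every member and pooled over probes. Adora1 oligo 1 was nearest to passing towards cortex, at 1.03 ± 0.48 (adjusted p = 0.0724). Adora3 was the only member gene with both oligos called higher in thymus in the quantile, control-centred and scan-block forms. The lymphocyte marker Kcna3 lay on the same side, at -2.01 and -1.63 after quantile scaling. In that form the B cell marker Pax5 had 1 of 2 oligos higher in thymus. With no scaling no oligo of either marker passed. No mast cell or myeloid marker of the list was on the array, and the part of cell makeup in these differences was not tested.

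The balb/c entry had 1 dim and 1 bright oligo. Oligo 1 had net signals of 219, 75.5 and -19 in cortex, against 300, 24.2 and 129 in thymus, and was not well above background on any array. It was not tested in the main form, yet it differed by -1.28 after quantile scaling, with no overlap of arrays. With no scaling it differed by -0.56. When the detection filter was dropped, it was called higher in thymus after quantile scaling by limma. A thymus difference of this size in the quantile form was thus also seen for an oligo without detected signal. Oligo 2 had 5464, 2643.5 and 1723 in cortex, against 4694, 2571.5 and 3351.5 in thymus, overlapping between the tissues. Oligo 2 was higher in thymus after quantile scaling (-1.23 ± 0.34, adjusted p = 0.00724 by limma) with each array left out in turn. It did not pass with no scaling (-0.18, adjusted p = 0.893) or after control centring (-0.57, adjusted p = 0.356).

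Across the class, 9 of the 12 oligos passed the detection filter, so the counts that follow cover those 9 and not all members. After quantile scaling 6 of 9 were called higher in thymus, where 23.7% of all tested probes were, and 0 of 9 higher in cortex by limma (0 also at an unadjusted p under 0.05), where 24.3% of all were. At an unadjusted p under 0.05, 26.2% of all probes were higher in cortex in that form. Their median difference was -0.998 against -0.10 over all probes. With no scaling 0 of 9 were called in either direction, and an unadjusted p under 0.05 was reached by 1 towards cortex and by 0 towards thymus, against 32% and 1.29% of all probes. In that form 25.2% of all probes were called higher in cortex and 0% in thymus, and the members' median was -0.14 against 0.86. After control centring 1 of 9 was called higher in cortex and 2 of 9 in thymus, against 30.3% and 6.02% of all probes, with medians of -0.53 and 0.48. After quantile scaling and with no scaling 6 of the 9 oligos lay below the median of all probes.

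Arrays of the tissues did not overlap after quantile scaling for 1 tested oligo with cortex above thymus and for 5 with thymus above cortex, where 26.5% and 29.2% of all probes separated in these directions. With no scaling 0 of 9 separated in either direction, against 30.3% of all probes for cortex above thymus and 1.94% for thymus above cortex. The number of adenosine receptor oligos called or separated thus moved with the scaling. Their median difference lay below 0 and below the median of all probes in every form. By the mean of their oligos, the receptors ran from Adora1 at the cortex end through Adora2a and Adora2b to Adora3 at the thymus end. This order was the same after quantile scaling and with no scaling. Both forms start from the same values, and scaling moved the members of an array largely together. The order could thus hardly change, and its agreement is no separate evidence.

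The number of member oligos above background, meaning that the spot median exceeded the local background by 2 background SD, did not separate the tissues. An oligo with every spot flagged on an array counted as not above background there. The number was 10, 8 and 8 of 12 on cortex 1, 2 and 3, against 10, 7 and 7 on thymus 1, 2 and 3 (8.67 ± 1.15 and 8.00 ± 1.73, SD, n = 3 each; exact permutation p = 0.6, two-sided, with 0.1 the smallest possible). With flagged spots kept the difference of the means was 2 in place of 0.67 (exact permutation p = 0.4). Over all 590 probes the share was 86.3%, 81% and 71% on cortex arrays and 66.6%, 45.8% and 47.8% on thymus arrays. Both oligos of the adora1 entry and oligo 2 of the Adora2a, Adora2b and balb/c entries were above background on all 6 arrays. Oligo 2 of the a1 entry was above background on the 4 arrays where it had a value, and each of the others failed on at least 1 array. Where both spots of an oligo exceeded a net signal of 1000, the 2 spots differed by a median of 0.40 log2 units over 31 oligo and array pairs, with a range of 0.02 to 1.67.

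Differences between receptors inside one array do not depend on a single brightness factor per array. Each receptor was taken as the mean of its 2 oligos after quantile scaling, with the adora1 entry for Adora1, and only the gap between tissues was read, since the height of such a difference also holds the probes' own brightness. Adora1 minus Adora3 was 3.62, 4.36 and 4.86 on cortex 1, 2 and 3, against 2.10, 2.42 and 1.55 on thymus 1, 2 and 3. The tissues were clearly apart, with a mean of 4.28 ± 0.62 in cortex and 2.02 ± 0.44 in thymus (SD, n = 3 each). The tissue gap was 2.26, and 3.30 with no background correction, Adora3 being near background.

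Adora1 minus Adora2b was 2.97, 3.14 and 3.17 in cortex, against 1.72, 1.74 and 1.0 in thymus, a gap of 1.61. Adora1 minus Adora2a was 0.49, 1.19 and 1.66 in cortex, against -0.14, 0.28 and 0.19 in thymus, a gap of 1.0. Adora2a minus Adora3 was 3.12, 3.17 and 3.20 in cortex, against 2.23, 2.14 and 1.35 in thymus, a gap of 1.26. Cortex lay above thymus on every array in these pairs and in Adora1 minus Adora3, each with an exact permutation p of 0.1, two-sided, the smallest that 3 against 3 allows, and 0.15 after adjustment over the 6 pairs. Adora2a minus Adora2b (gap 0.61) and Adora2b minus Adora3 (gap 0.65) overlapped between tissues, each with an exact permutation p of 0.2. With flagged spots kept, Adora1 minus Adora2a had a gap of 1.68, while Adora2a minus Adora3 fell to a gap of 0.70 (exact permutation p = 0.4) and Adora2a minus Adora2b to 0.14 (exact permutation p = 0.9). With no background correction Adora2a minus Adora3 was at 2.20 and Adora2b minus Adora3 at 1.35.

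Relative to Adora2a, Adora2b and Adora3 on the same array, the Adora1 signal was therefore higher in cortex than in thymus. Arrays did not overlap, though no pair passed 0.05 in a design of this size. Against Adora2a the gap of 1.0 was not wider than the spread of the cortex arrays, 0.49 to 1.66. The nearest arrays there were 0.49 in cortex and 0.28 in thymus. The gaps with Adora1 also kept their sign within both scan settings that held the 2 tissues, at 1.89 and 2.44 for Adora3, 1.34 and 1.43 for Adora2b and 0.98 and 1.38 for Adora2a. With no scaling they were 2.38, 1.61 and 0.95.

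The array held little else of the adenosine pathway. None of the 14 listed P2 purine receptor genes was printed, and 1 of 12 genes of adenosine metabolism and transport was, adenosine kinase (Adk), which phosphorylates adenosine to AMP inside cells. Its 3 oligos differed by -0.72 ± 0.38, -0.03 ± 0.40 and 0.43 ± 0.35 after quantile scaling, and 0 of 3 passed with limma in the quantile form or with no scaling. Of 29 genes of cyclic AMP signalling 1 was printed, Prkaca, a catalytic subunit of protein kinase A. Its oligos differed by 0.65 ± 0.48 (adjusted p = 0.282 by limma) and 0.56 ± 0.36 (adjusted p = 0.217) after quantile scaling, so neither passed. With no scaling they differed by 2.25 (adjusted p = 0.0262) and 1.69 (adjusted p = 0.0728), and after control centring both passed (adjusted p = 0.0219 each). The first of these oligos and the second of Adk had values on 5 of the 6 arrays.

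Other receptor classes on the array also held oligos called higher in thymus after quantile scaling, where 23.7% of all tested probes were. The count was 6 of 9 tested adenosine receptor oligos, 5 of 11 adrenergic, 4 of 9 dopamine and 9 of 19 serotonin receptor oligos, with median differences of -0.998, -0.91, -0.65 and -0.74. With no scaling the count was 0 in each of the 4 classes by limma, and the medians were -0.14, 0.11, 0.22 and 0.10. No test of a difference between classes was made. Striatal markers, listed because A2a is best known there, had 1 of 5 tested oligos higher in cortex, 1 of the dopamine receptor Drd2, which was above background on no thymus array (at least 1.17-fold, adjusted p = 0.0133 by limma). That oligo met the detection filter through the cortex arrays alone, so its p-value is no separate evidence of a difference. Summed over all 8 striatal marker oligos, tested or not, net signals were 4570 to 11127 in cortex and 966 to 4131 in thymus.

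As a description of likeness, each receptor's scaled profile over the 6 arrays, centred on its mean, was set against 431 other probes by mean absolute distance in log2 units. The nearest to Adora1 were printed glur delta1 (0.07) and mglur5p (0.13), both of glutamate receptor names. The nearest to Adora2a were printed alpha 2b (0.04) and Cort, the neuropeptide cortistatin (0.13). Adora2b lay nearest to the probe printed 5httx (0.11) and to Kcnj6, an inwardly rectifying potassium channel (0.13), and Adora3 to those printed nos1 (0.12) and Kir4.2a (0.16). The median distance over all probes was 0.60 to 0.88, depending on the receptor.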

How the data were processed

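Scanner output of 6 single-colour arrays (Cy5) was used, with groups from the sample titles. The values are spot intensities as deposited, on the linear scanner scale, with a local background per spot and no normalization per the file headers. The deposited flag column, another kind of value, marks bad spots. No source used here names the quantification software, which is not given in the labels or headers. The deposited value table covers 20 probes and 0 members, so it was not used.

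In R 4.3.3, limma 3.58.1 corrected spot medians by normexp with an offset of 50, fitted over every spot. After removal of flagged and control spots, log2 values were averaged per oligo and quantile-normalized between arrays. Detection asked for a spot median over 2 SD above the local background. Oligos detected on 3 or more of 6 arrays and holding 2 or more values in each tissue entered lmFit and eBayes as a two-sided contrast of cortex minus thymus, with a Benjamini-Hochberg threshold of 0.05. The fit was tested on simulated data. Net signals are means over unflagged spots. Where a group had no array above background, a fold would be a lower bound, and for the members concerned none is given. Within-array differences used two-sided exact permutation tests.

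Symbols were looked up in the RefSeq table of assembly GRCm38.p6, with no coordinates taken from it: 2 member oligos matched by accession, 8 were named from the printed class and name, and 2 have no symbol. Oligo sequences were not used here. All members are named, and likeness names the 2 nearest probes per receptor. The members, gene lists and tests were chosen with earlier results of these data known. The number of arrays limits the precision. Alternatives changed the scaling, background correction, offset, filter, spot summary, flags, blocks and arrays included.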

Additional observations from a re-analysis of the deposited data

How the results depend on the processing

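Among members, 6 calls after quantile scaling, all higher in thymus, became 0 with no scaling, 3 with control centring (1 higher in cortex, 2 in thymus) and 3, all higher in thymus, when oligos had to be above background on all 6 arrays. Keeping flagged spots gave 5 member calls, 1 higher in cortex and 4 in thymus. Adora3 oligo 2 then failed the detection filter, so that Adora3 was called by oligo 1 alone. Leaving out 1 array gave 2 to 6 member calls, all higher in thymus, with 3 without cortex 1 and without cortex 2 and 2 without thymus 1, where fewer oligos were tested. The members' median was -0.14 with no scaling and -0.53 with control centring, and -1.06 to -0.31 with 1 array left out. Against 223 probe calls (113 higher in cortex, 110 in thymus), no scaling gave 117 (117 in cortex, 0 in thymus), control centring 169 (141 in cortex, 28 in thymus), background subtraction 170 (100 in cortex, 70 in thymus), and the all-array filter 81 (18 in cortex, 63 in thymus). Leaving out 1 array gave 111 to 219 probe calls, with 46 to 115 higher in cortex and 65 to 104 higher in thymus. The Adora2a oligo 1 difference, -0.05, turned to 0.97 with no scaling, 0.57 with control centring, 0.023 with background subtraction and 0.19 with the highest spot, was -1.05 with flagged spots kept, and ranged from -0.30 to 0.30 with 1 array left out. The cause of these changes was not tested, beyond the fewer oligos that stricter filters and fewer arrays leave.

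Alternatives chosen after seeing the data were 3. With no scaling and flagged spots kept, 1 member was called, higher in cortex, and 0 in thymus, with a median of -0.058 and 119 probe calls (0 in thymus). When the arrays of setting 2 were left out, 110 probes were called (44 higher in cortex, 66 in thymus), and Adora2a oligo 1 was at 0.36. With no scaling and the scan setting as a block, 2 members were called, both higher in thymus, with a median of -0.44, 32 probe calls higher in thymus, and Adora2a oligo 1 at 0.36.

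The difference in members above background, 0.67, was -1 with a limit of 1 SD, 2 with flagged spots kept and 0 to 1.67 with 1 array left out, the 0 being without cortex 1. Gaps between oligos turned to -0.035 for Adora2b with no background correction, and with flagged spots kept to -0.12 for Adora2a and -0.96 for the a1 entry of Adora1. With 1 array left out they were -0.21 to 0.77 for the a1 entry and -0.36 to 0.58 for balb/c. Gaps between receptors kept their direction under every alternative run for them, but not their size, at 0.74 to 1.68 for Adora1 minus Adora2a, 1.39 to 1.95 for Adora1 minus Adora2b, 1.88 to 3.30 for Adora1 minus Adora3, 0.14 to 0.87 for Adora2a minus Adora2b, 0.70 to 2.20 for Adora2a minus Adora3 and 0.33 to 1.35 for Adora2b minus Adora3, the last being lowest without cortex 3. Same-numbered arrays of the tissues deviated together with correlations of 0.17, -0.09 and 0.01, which gave no clear sign of pairing by replicate number. Cortex 1 and thymus 1, at 0.17, shared setting 1 and also a date in the headers. Cortex 3 and thymus 2, of setting 2, were at 0.19. With the replicate block 5 members were called, all higher in thymus, Adora2b oligo 1 being at an adjusted p of 0.0587 by limma, and 210 probes were called. The deposited value table was not run because it holds no member. Members near background, Adora3 and Adora2b oligo 1 among them, are limited by their signal over background.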
